A study of Mus musculus with 12 samples.

Results

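Chemokines are small secreted or membrane-tethered proteins that guide leukocytes through G protein-coupled receptors. Here the family was taken by name: every gene of the count table whose symbol was Ccl, Cxcl, Ccr or Cxcr followed by a number and at most a letter, plus Cx3cl1, Cx3cr1, Xcl1 and Xcr1. This rule found 56 of 49492 genes, namely 23 CC ligands, 13 CXC ligands, 2 CX3C and XC ligands, 10 CC receptors, 6 CXC receptors and 2 CX3C and XC receptors. The rule used names only and no measured value.

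The tissue was mouse skin under 2 conditions, UV light and control, with 3 samples each. Each sample gave an immunoprecipitated (IP) library, made with an antibody against N6-methyladenosine (m6A), and an input library of RNA not taken through that step, 12 libraries in all. The series title places the work in photoaging and in the m6A writer KIAA1429. The labels used here do not state the strain, age or sex of the mice, the kind, dose and timing of UV, or any pooling of animals. Whether the samples of a condition came from separate animals is likewise unstated, and a p-value then covers only the spread among these samples, which may be technical.

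In skin, Ccl27 from keratinocytes attracts T cells that carry Ccr10, and Ccl17 and Ccl22 attract skin-homing T cells through Ccr4. Ccl19 and Ccl21 lead dendritic cells that carry Ccr7 into lymphatic vessels, Cxcl1, Cxcl2 and Cxcl3 recruit neutrophils through Cxcr2, and Cx3cl1 tethers macrophages and other cells that carry Cx3cr1. m6A is a methyl mark on internal adenosines of mRNA that lies most often near stop codons and in 3′ UTRs and is known to act on the stability and translation of transcripts.

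The libraries held 24126662 to 92163619 reads in genes. A count of 0 in a library therefore allowed up to 3 reads, or 0.0326 to 0.124 CPM (counts scaled to the reads in genes of the library), and such limits cover counting error only. If both mates of a fragment were counted, the limits would be higher. Ccl26, an eotaxin, and Cxcr1, a neutrophil receptor, had no read in any of the 12 libraries. Reads were present in each of the 6 input libraries for 45 of the 56 genes. Levels are given below as CPM with TMM library factors. Whether reads were counted by strand is unstated, and 8 of the 56 genes shared exon bases with another gene, mostly on the opposite strand. The largest shares were in Cxcl11 (41.7% of its exon bases, with Gm2673), Ccr9 (18.8%, with Gm17021), Xcl1 (18.7%, with Gm20743) and Cxcl16 (18.3%, with Zmynd15), and reads of such a pair cannot be told apart here. Ccl21a and Ccl21b, and Ccl27a and Ccl27b, are near-identical copies whose reads may have been split by the counting, so their values are uncertain.

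Upstream sequence was set beside the expression data for 5 genes. Cxcl1, Cxcl2 and Cxcl3 are neighbours on chromosome 5 that share a receptor, but Cxcl1 did not share the pattern of levels of Cxcl2 and Cxcl3. Ccr4 and Cx3cr1 are the 2 receptors that fell. The genes and motifs were picked with the levels known. The 250 bases before the RefSeq start are printed from GRCm38.p6, with motif matches in capitals: Cxcl1 (chr5:90890995-90891244, plus strand), Cxcl2 (chr5:90903649-90903898, plus strand), Cxcl3 (chr5:90785851-90786100, plus strand), Ccr4 (chr9:114496545-114496794, minus strand) and Cx3cr1 (chr9:120068297-120068546, minus strand).
Cxcl1: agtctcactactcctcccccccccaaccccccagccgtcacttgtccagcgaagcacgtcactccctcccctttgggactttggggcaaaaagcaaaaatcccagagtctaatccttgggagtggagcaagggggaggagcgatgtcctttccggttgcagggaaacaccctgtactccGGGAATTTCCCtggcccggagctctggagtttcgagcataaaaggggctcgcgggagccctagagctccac
Cxcl2: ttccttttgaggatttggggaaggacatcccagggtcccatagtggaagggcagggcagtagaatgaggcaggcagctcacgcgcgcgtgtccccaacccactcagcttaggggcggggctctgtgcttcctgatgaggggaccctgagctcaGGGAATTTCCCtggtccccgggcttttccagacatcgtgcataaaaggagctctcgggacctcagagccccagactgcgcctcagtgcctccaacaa
Cxcl3: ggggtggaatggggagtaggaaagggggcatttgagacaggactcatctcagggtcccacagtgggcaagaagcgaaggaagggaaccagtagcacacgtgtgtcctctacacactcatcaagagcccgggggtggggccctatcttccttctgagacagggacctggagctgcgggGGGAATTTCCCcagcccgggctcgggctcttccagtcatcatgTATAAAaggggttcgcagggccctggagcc
Ccr4: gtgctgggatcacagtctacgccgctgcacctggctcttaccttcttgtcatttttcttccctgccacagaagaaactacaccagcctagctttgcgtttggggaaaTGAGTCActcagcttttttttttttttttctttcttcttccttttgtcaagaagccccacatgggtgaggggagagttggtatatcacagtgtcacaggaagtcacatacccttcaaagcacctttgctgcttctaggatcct
Cx3cr1: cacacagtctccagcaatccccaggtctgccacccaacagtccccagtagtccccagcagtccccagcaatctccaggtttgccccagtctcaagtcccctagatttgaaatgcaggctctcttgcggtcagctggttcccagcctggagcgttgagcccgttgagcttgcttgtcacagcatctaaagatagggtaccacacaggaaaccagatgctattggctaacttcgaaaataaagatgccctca
In Cxcl1, Cxcl2 and Cxcl3 the capitals ending in TTTCCC are 2 overlapping matches to the NF-kappaB motif, first base at −71 and −70 from the start in Cxcl1, −97 and −96 in Cxcl2, and −73 and −72 in Cxcl3. The TATAAA capitals of Cxcl3 begin at −30, and those of Ccr4 match TGANTCA (AP-1) at −143. None of the motifs searched was found in the Cx3cr1 window. Both strands were searched for the NF-kappaB motif, for TATAAA, for the AP-1 motif TGANTCA, for an interferon response motif and for a STAT6 motif, with overlaps between motifs allowed. RefSeq gave 48 promoters for 41 of the 56 genes and 32851 promoters in all. The NF-kappaB motif was in 20.8% of the family's promoters and 7.25% of all promoters, and TATAAA was in 25.0% and 12.4%. The AP-1 motif was in 12.5% and 6.75%, the interferon response motif in 6.25% and 2.98%, and the STAT6 motif in 2.08% and 5.85%. A match describes these letters only.

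Cxcl14 had the highest level of the family, both in CPM and per length. This ligand is made constitutively by epithelia, and it had 46.0, 78.3 and 52.8 CPM in UV inputs, against 66.6, 82.8 and 62.9 CPM in control inputs. Cxcl12, the stromal ligand of Cxcr4, had 28.7, 34.9 and 32.2 CPM in UV inputs, against 37.8, 45.0 and 34.6 CPM in control inputs. Cxcl16, the membrane-anchored ligand of Cxcr6, had 30.7, 26.6 and 30.5 CPM in UV inputs, against 25.4, 19.9 and 28.4 CPM in control inputs. In all 3 genes the UV and control ranges overlapped, and the ranges of Cxcl12 and Cxcl16 overlapped each other in UV inputs. Ccl21a, the lymphatic ligand of Ccr7, had 12.3, 8.77 and 14.1 CPM in UV inputs, against 7.69, 9.83 and 11.8 CPM in control inputs. Per kilobase of exon, the mean input levels of Cxcl14 (35.6 CPM per kilobase), Ccl21a (12.4) and Cxcl16 (8.91) were followed by those of Ccl8, a ligand of Ccr8 in mice (5.76), and Cxcl12 (4.34).

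Among the ligands of middle level, Ccl25, the ligand of Ccr9, had 7.44, 7.19 and 8.13 CPM in UV inputs, against 8.34, 8.25 and 6.64 CPM in control inputs. Ccl6, a myeloid CC ligand of rodents, had 5.62, 5.94 and 5.15 CPM in UV inputs, against 3.52, 5.05 and 6.24 CPM in control inputs. Its neighbour Ccl9 had 3.61, 5.33 and 3.67 CPM in UV inputs, against 2.84, 3.82 and 5.23 CPM in control inputs. These 3 genes overlapped between conditions, as did the following pair. Ccl8 had 1.99, 3.38 and 2.53 CPM in UV inputs, against 2.94, 3.08 and 3.73 CPM in control inputs. Cx3cl1 (fractalkine) had 3.12, 2.85 and 2.5 CPM in UV inputs, against 2.86, 2.89 and 3.22 CPM in control inputs.

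Among the receptors, Ccr2, the monocyte receptor of Ccl2, had 4.97, 7.33 and 5.81 CPM in UV inputs, against 7.82, 8.64 and 8.73 CPM in control inputs, without overlap. Its log2 change was −0.47 ± 0.15 (SE), which did not pass the test (adjusted p = 0.106). Ccr9, the gut-homing receptor, had 4.43, 3.09 and 5.0 CPM in UV inputs, against 5.58, 4.55 and 6.22 CPM in control inputs, with overlap. Ccr10, the receptor of Ccl27, had 3.01, 1.81 and 2.69 CPM in UV inputs, against 2.75, 1.93 and 2.03 CPM in control inputs. The conditions overlapped for Ccr10, and for the next pair too. Cxcr6 had 2.10, 1.45 and 1.96 CPM in UV inputs, against 1.60, 1.66 and 1.91 CPM in control inputs. Cxcr4 had 0.966, 1.65 and 1.38 CPM in UV inputs, against 1.62, 2.08 and 1.87 CPM in control inputs.

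The lowest genes lay at or near the counting floor. They include Cxcl15 with at most 2 reads in any library, Cxcr3 with at most 8 and Ccr8 with at most 7, and Ccl17, a Ccr4 ligand, with 0.0568, 0.0393 and 0.0321 CPM in UV inputs, against 0.0646, 0.0771 and 0.208 CPM in control inputs. Ccl22, the other Ccr4 ligand, had 0.682, 0.688 and 0.818 CPM in UV inputs, against 1.13, 0.694 and 1.18 CPM in control inputs. The 14 genes left out of the expression test by the filter on low counts had mean input levels of at most 0.198 CPM. They are Ccl1, Ccl12, Ccl17, Ccl21b, Ccl24, Ccl26, Cxcl3, Cxcl13, Cxcl15, Xcl1, Ccr3, Ccr8, Cxcr1 and Cxcr3. Counts over the 42 tested genes say nothing of these.

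**Figure D1:**
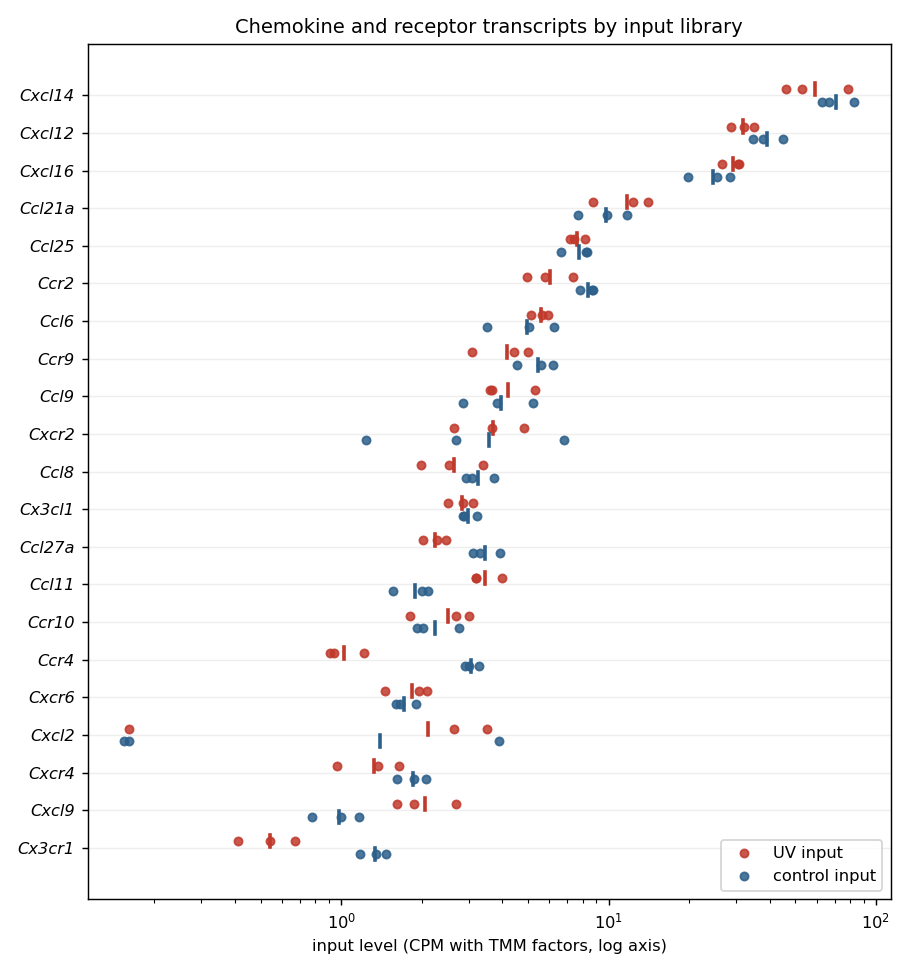
Input level in CPM (log axis) of 21 chemokine and receptor genes of high level, Cxcl9 and Cx3cr1 among them; points are libraries, upper red points UV and lower blue points control, and vertical bars are group means. In CPM, which is not per length, Cxcl14, Cxcl12 and Cxcl16 lie to the right of all others, Ccr4 and Cx3cr1 have UV points that lie wholly to the left of control, and Cxcl2 has points near 0.160 CPM and at 2.63 CPM or more in both conditions.

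The first comparison asks which family transcripts differ between UV-exposed and control skin. Ccr4 fell to 0.909, 0.944 and 1.22 CPM in UV inputs, against 3.26, 3.01 and 2.91 CPM in control inputs. Cx3cr1 fell to 0.540, 0.413 and 0.674 CPM in UV inputs, against 1.18, 1.35 and 1.47 CPM in control inputs. Ccl11 (eotaxin, which attracts eosinophils through Ccr3) rose to 3.18, 3.20 and 3.99 CPM in UV inputs, against 2.12, 2.00 and 1.56 CPM in control inputs. For these 3 genes no UV library overlapped a control library.

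Of 42 tested family genes, 1 rose and 2 fell, together 7.14%, against 5.83% of the 24099 genes tested (3.02% higher and 2.81% lower). The family's share was thus near the background. An unadjusted p below 0.05 was found for 10 of the 42, against 25.1% of all genes. The median log2 change was 0.01 over the 42, 0.04 over the 28 ligands and −0.40 over the 14 receptors, against −0.02 over all genes tested. Scaling by library size alone moved the median of all genes to −0.12, and relative to it the ligands stood at 0.10 and the receptors at −0.38. UV inputs lay wholly above control inputs in 4 of the 42 genes and wholly below in 5, against 15.5% of all genes in each direction. The 4 were Ccl11, Cxcl9, Ccl2 and Cxcr5, and the 5 were Ccr4, Cx3cr1, Ccr2, Ccl27a and Ccl27b.

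Ccr4 (chromosome 9, 114490316 to 114504916) averaged 1.02 ± 0.17 CPM in UV inputs and 3.06 ± 0.18 CPM in control inputs (SD, n = 3 each). Its log2 change was −1.57 ± 0.19 (SE; edgeR's quasi-likelihood test, Benjamini-Hochberg adjusted p = 0.00526). Ccr4 stayed below 0.05 in the 12 alternative settings run, with log2 changes of −1.72 to −1.49 and adjusted p of 2.85e-08 to 0.0353. Cx3cr1 (chromosome 9, 119901616 to 120069879) averaged 0.542 ± 0.13 CPM in UV inputs and 1.33 ± 0.147 CPM in control inputs (SD, n = 3 each), a log2 change of −1.28 ± 0.26 (SE; edgeR adjusted p = 0.0308). Ccl11 (chromosome 11, 82057823 to 82062955) averaged 3.46 ± 0.46 CPM in UV inputs and 1.89 ± 0.30 CPM in control inputs (SD, n = 3 each), a log2 change of 0.88 ± 0.19 (SE; edgeR adjusted p = 0.0339). The calls of Cx3cr1 and Ccl11 were lost without control sample 1, without control sample 3 and without each UV sample, at adjusted p of up to 0.117 for Cx3cr1 and 0.115 for Ccl11. Scaling by library size alone also ended the call of Ccl11.

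A further 3 genes lay just above the threshold, of which Cxcl9 and Ccl27b were picked after their values were seen. Cxcl9, an interferon-induced ligand of Cxcr3, had 1.62, 1.87 and 2.68 CPM in UV inputs, against 0.776, 1.00 and 1.16 CPM in control inputs. Its log2 change was 1.08 ± 0.26 (SE; edgeR adjusted p = 0.0508), and 5 of 12 alternative settings called it. Ccl27a, the keratinocyte ligand of Ccr10, had 2.02, 2.46 and 2.28 CPM in UV inputs, against 3.94, 3.32 and 3.12 CPM in control inputs. Its log2 change was −0.62 ± 0.17 (SE; edgeR adjusted p = 0.0650), and 2 alternative settings called it. Its copy Ccl27b had 0.256, 0.590 and 0.321 CPM in UV inputs, against 1.49, 0.617 and 1.49 CPM in control inputs, a log2 change of −1.64 ± 0.42 (SE; edgeR adjusted p = 0.0577) that 6 alternative settings called. In each of these 3 genes the conditions did not overlap, although 0.590 CPM in UV sample 2 lay close to 0.617 CPM in control sample 2 for Ccl27b.

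Other ligands with an unadjusted p below 0.05 were the monocyte attractant Ccl2 (log2 change 1.22, adjusted p = 0.124), the Ccr7 ligand Ccl19 (−1.01, adjusted p = 0.146) and Cxcl12 (−0.29, adjusted p = 0.172). The interferon-induced ligands Cxcl10 and Cxcl11 had log2 changes of 0.48 and 0.19, neither past the test. All remaining genes had adjusted p of at least 0.264. Those not yet described are Cxcl5, Cxcl17, Ccl5, Ccl7, Ccl20, Ccl28, Ccr1, Ccr6, Ccr7, Cxcr5 and Xcr1, with log2 changes between −0.64 (Xcr1) and 0.82 (Ccr1).

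**Figure D2:**
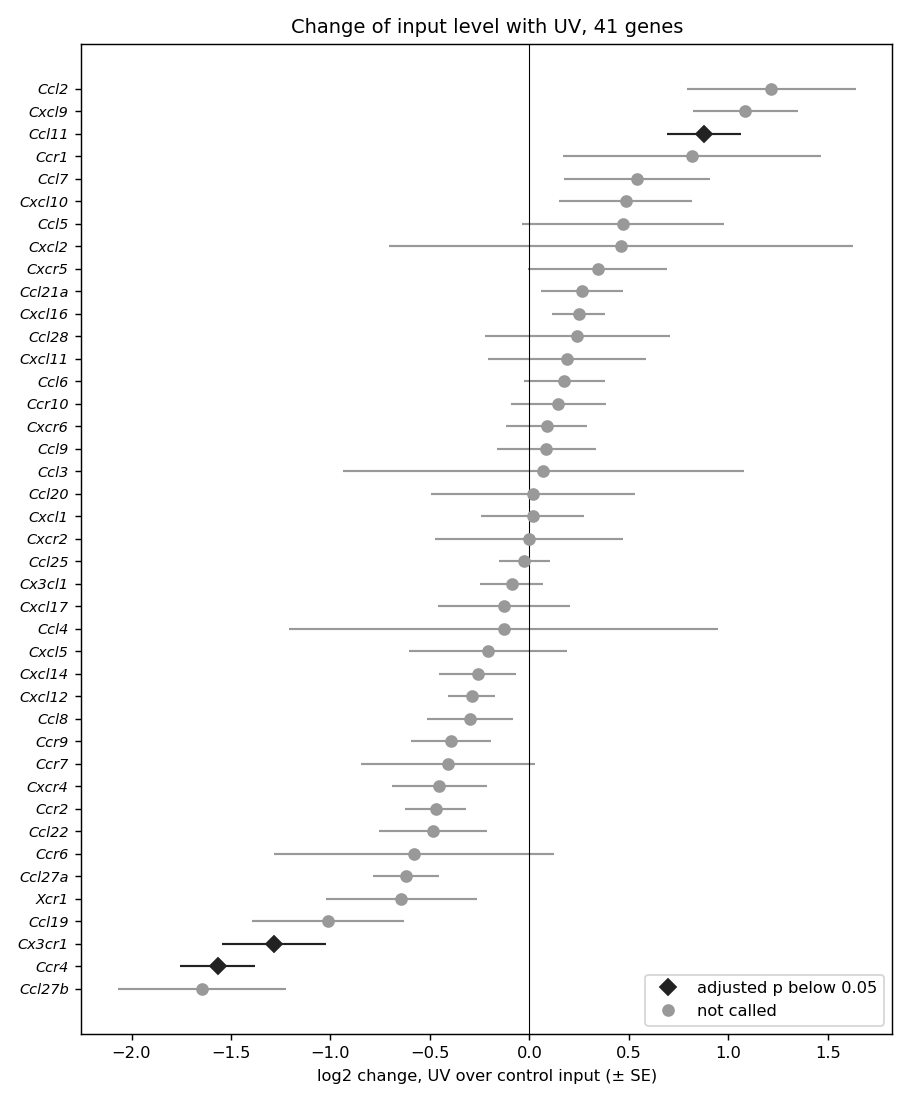
Log2 change of input level, UV over control, for 41 tested family genes with ± SE from edgeR; black diamonds have an adjusted p below 0.05 and grey circles do not. Ccl11 is the black point to the right of 0, and Ccr4 and Cx3cr1 are the black points to the left.

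Markers of resident immune cells moved beside these receptors. Over all genes tested, 3.02% were called higher and 2.81% lower. Of 8 epidermal gamma delta T cell markers tested, 6 fell and none rose, with a median log2 change of −2.97, or −2.85 with Tcrg-V5 at its bound. Their summed level was 11.8, 12.3 and 11.0 CPM in UV inputs, against 22.6, 28.6 and 26.6 CPM in control inputs. Tcrg-V5, a defining receptor chain of these cells, had no read in the 3 UV inputs. Set against a floor of 3 counts per library, it was 5.90-fold lower than in control. That fold would be smaller if both mates of a fragment were counted. Cd3g, a chain that all T cells share, had a log2 change of −2.79. Of 10 Langerhans and dendritic cell markers, 5 fell and none rose (median −0.59), with a summed level of 317, 305 and 341 CPM in UV inputs, against 355, 378 and 390 CPM in control inputs. Cd207 (langerin), the defining marker of Langerhans cells, had a log2 change of −1.60. Of 8 macrophage markers, 2 fell (Csf1r and Lyz2) and none rose, with sums of 133, 148 and 135 CPM in UV inputs, against 148, 160 and 203 CPM in control inputs. The family gene Xcr1 is in the dendritic list and Ccr2 in the monocyte list. In bulk skin, fewer cells of a type and less RNA per cell cannot be told apart, and the part of these cell types in the values of Ccr4 and Cx3cr1 was not tested.

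For the other cell types, no marker passed the edgeR test among 5 tested for monocytes (median −0.26), 7 for neutrophils (0.19), 5 for alpha beta T cells (0.29), 6 for mast cells (0.82), 1 for B cells (0.09), 4 for lymphatic endothelium (0.14), 5 for blood endothelium (0.35) and 5 for differentiated keratinocytes (0.23). At an unadjusted p below 0.05 there were 5 mast cell, 3 blood endothelial, 2 lymphatic, and 1 each of monocyte, neutrophil and differentiated keratinocyte markers, and DESeq2 called 2 mast cell, 1 blood endothelial and 1 neutrophil marker higher. The mast cell markers summed to 23.3, 33.8 and 31.9 CPM in UV inputs, against 21.3, 27.6 and 23.0 CPM in control inputs. Natural killer cell markers were too low to test. Of 5 fibroblast markers 2 fell (median −0.53), and of 5 basal keratinocyte markers 1 rose and 1 fell (median 0.54). The shares over all genes were 3.02% higher and 2.81% lower.

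Cxcl2, a ligand of the neutrophil receptor Cxcr2, split the libraries in a way that the conditions did not. It had 3.52, 2.63 and 0.160 CPM in UV inputs, against 0.162, 0.154 and 3.88 CPM in control inputs. It was high in UV samples 1 and 2 and in control sample 3, and low in the other three. The IP libraries of the same samples gave 107, 144 and 6 Cxcl2 reads in UV, against 6, 2 and 66 in control. The group difference was a log2 change of 0.46 ± 1.17 (SE; edgeR adjusted p = 0.842). Cxcl1, by contrast, had 0.795, 0.747 and 0.802 CPM in UV inputs, against 0.679, 1.00 and 0.693 CPM in control inputs, a narrow range in both conditions.

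Several genes with the same split are named after their values were seen. Ccl4, an inflammatory CC ligand, had 0.312, 0.197 and 0.0321 CPM in UV inputs, against 0.0323, 0.00 and 0.451 CPM in control inputs. Ccl3, a ligand of Ccr1, had 0.398, 0.236 and 0.0962 CPM in UV inputs, against 0.00, 0.154 and 0.485 CPM in control inputs. Cxcl3 had 0.398, 0.157 and 0.0962 CPM in UV inputs, against 0.0970, 0.0771 and 0.364 CPM in control inputs. In all 3, control sample 3 and UV sample 1 were the highest libraries, at levels of at most 28 reads. The receptor Cxcr2 had 4.83, 2.63 and 3.67 CPM in UV inputs, against 2.70, 1.23 and 6.81 CPM in control inputs, with its highest value in control sample 3 but without the same split, since UV sample 3 and control sample 1 lay above UV sample 2. Il1b, an inducer of these ligands from the list of inducers, had 5.0, 2.93 and 0.738 CPM in UV inputs, against 1.23, 1.16 and 7.07 CPM in control inputs. The neutrophil markers summed to 64.0, 59.5 and 49.0 CPM in UV inputs, against 27.4, 42.6 and 51.1 CPM in control inputs. These sums were highest in UV samples 1 and 2 and control sample 3, the order of the split. There was no clear gap, since control sample 3 lay close to UV sample 3. Ly6g, a defining marker of mouse neutrophils, lay at 0.00 to 0.0568 CPM in the 6 inputs. The part of neutrophils in the values of Cxcl2 was not tested.

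**Figure D3:**
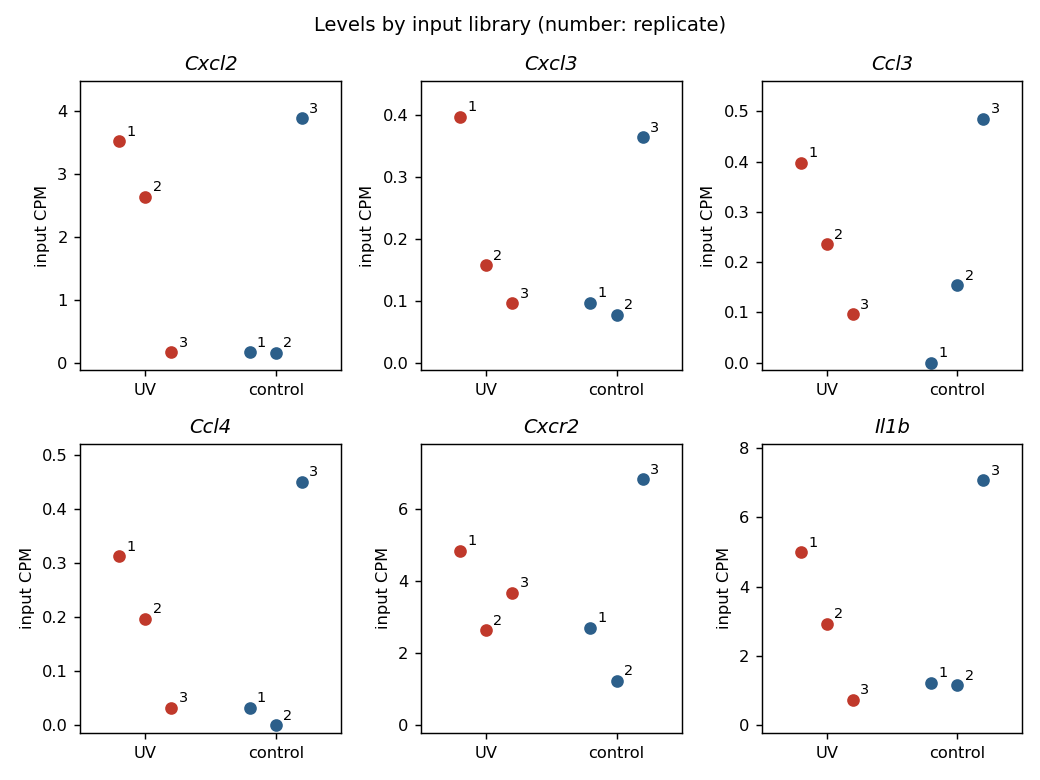
Input level in CPM of Cxcl2, Cxcl3, Ccl3, Ccl4, Cxcr2 and Il1b in each library, UV on the left and control on the right, with the replicate number beside each point. Control sample 3 lies far above the other control samples in each panel except Ccl3, where control sample 2 lies between, and for Cxcl2 UV samples 1 and 2 lie with it.

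Genes that act around the family were read from lists. Of 16 tested atypical receptors and family genes outside the name rule, none passed the edgeR test (median −0.07). Among them 4 had an unadjusted p below 0.05, and DESeq2 called 1 higher and 1 lower. Of 36 chemokine signalling genes 4 fell and none rose (median −0.06): Grk3, which phosphorylates receptors (−0.60), Pik3cd, a leukocyte phosphoinositide kinase (−0.72), and Dock2 and Prex1, which activate Rac (−0.59 and −0.44). Of 30 inducers and NF-kappaB pathway genes none passed the edgeR test (median 0.00), 2 had an unadjusted p below 0.05 and DESeq2 called none. Of 20 genes of chemokine processing and presentation 3 fell and none rose (median −0.07), namely the metalloproteinase Mmp3 (−0.46), the cysteine protease Ctsk (−0.41) and the heparan sulfate proteoglycan Hspg2 (−0.43). None of 15 m6A machinery genes passed the edgeR test (median 0.04), 1 had an unadjusted p below 0.05 and DESeq2 called none. Over all genes tested the median was −0.02, with 3.02% called higher and 2.81% lower.

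The second comparison sets IP over input within each condition, where 0 on the log2 scale is close to the typical gene because the fit centres the libraries on each other. Receptor transcripts had a higher median than ligand transcripts in both conditions. The median log2 IP over input of the 14 tested receptors was 0.68 in UV and 0.58 in control, with 12 and 10 of 14 above 0. The 31 tested ligands had medians of −0.20 in UV and −0.25 in control, against −0.01 in UV and −0.04 in control over all 25022 genes. The difference between receptors and ligands was not tested.

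In UV samples 6 of 45 tested family genes had more IP than input and 2 had less, that is 13.3% against 24.7% of all genes higher, and 4.44% against 24.3% lower. In control samples 7 had more (15.6%, against 24.6% of all genes) and 6 had less (13.3%, against 25.8%). With a block for each sample, which its IP and input libraries share, the counts were 10 higher and 7 lower in UV, against 30.4% and 30.1% of all genes, and 11 higher and 8 lower in control, against 30.0% and 31.1% of all genes. The block added Cxcr2 to the enriched receptors in both conditions, and Cxcl16 to the depleted ligands in both. In UV alone it added Ccl27b and Xcr1 as higher and Ccl21a, Ccl6, Cxcl12 and Cxcl14 as lower, and in control alone Ccr9 and Xcl1 as higher and Cxcr4 as lower. In the fit without the block each share of the family lay below the share of all genes. Of the 45 genes, 6 were higher in both conditions, against 21.1% of all genes, and 2 were lower in both, against 20.9%.

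Cx3cr1 carried the highest receptor enrichment in UV. Its log2 IP over input was 1.52, 2.36 and 1.30 in UV samples, against 0.98, 1.28 and 0.79 in control samples, above 0 in all 6. The fitted values were 1.80 ± 0.24 (SE; adjusted p = 4.55e-05) in UV and 1.05 ± 0.22 (SE; adjusted p = 0.00152) in control. Ccr10 had 0.81, 1.04 and 0.79 in UV samples, against 0.79, 1.00 and 1.50 in control samples, and fitted values of 0.87 ± 0.23 in UV and 1.09 ± 0.23 in control (SE; adjusted p = 0.00651 and 0.00157). Ccr4 had 0.87, 0.54 and 0.74 in UV samples, against 0.61, 0.69 and 0.41 in control samples, and fitted values of 0.72 in UV and 0.59 in control (adjusted p = 0.00869 and 0.0141). Xcr1, the receptor of cross-presenting dendritic cells, had 0.14, 1.33 and 1.26 in UV samples, against 1.07, 1.41 and 0.98 in control samples, and passed the test in control (1.32, adjusted p = 0.0165) but not in UV (1.04, adjusted p = 0.0631), where it passed with the sample block (adjusted p = 0.00415). All 4 receptors lay above 0 in each of the 6 samples.

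Enriched ligands in both conditions were Cx3cl1, Ccl11 and Ccl27a. Cx3cl1 had 0.73, 0.67 and 1.05 in UV samples, against 0.44, 0.71 and 0.37 in control samples, with fitted values of 0.83 in UV and 0.51 in control (adjusted p = 0.000254 and 0.00756). Ccl11 had 0.64, 0.76 and 0.57 in UV samples, against 0.82, 0.99 and 0.85 in control samples, with fitted values of 0.66 in UV and 0.92 in control. Ccl27a had 0.56, 0.52 and 0.53 in UV samples, against 0.88, 0.78 and 0.72 in control samples, with fitted values of 0.54 in UV and 0.81 in control. For Ccl11 and Ccl27a every UV sample lay below every control sample, a difference taken up by the interaction test described further on.

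Ccl8 and Ccl9 were depleted in both conditions. Ccl9 had −1.22, −1.32 and −1.80 in UV samples, against −1.84, −1.43 and −2.42 in control samples, with fitted values of −1.40 in UV and −1.93 in control. Ccl8 had −0.31, −1.28 and −1.60 in UV samples, against −2.11, −1.90 and −1.03 in control samples, with fitted values of −1.07 in UV and −1.69 in control. Ccl6 and Ccl19 were called lower in control, at −0.79 and −2.37, as were Cxcl12 at −0.48 and Cxcl14 at −0.61. With the sample block, Ccl6 and Cxcl12 were also called lower in UV, at −0.43 and −0.20 (adjusted p = 0.00635 and 0.0111). Cxcl14 gave −0.54, −0.55 and −0.51 in UV samples, against −0.57, −0.63 and −0.62 in control samples, a spread of 0.02 and 0.03 (SD). Its fitted value in UV was −0.54 with an adjusted p of 0.0517, and with the sample block 5.67e-09.

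With a sample left out, several of these calls no longer passed the test while their fitted values stayed within 1.5 times. In UV, Ccl11 lost its call without UV sample 2, Ccr4 without UV sample 1, Ccl8 without UV sample 2 or 3, and Ccl27a without any 1 of the 3 UV samples, at fitted values of 0.53 to 0.55. In control, Ccr4 and Xcr1 lost theirs without control sample 1 or 2, Cx3cl1 without control sample 2, and Cxcl14 without any 1 of the 3 control samples, at −0.62 to −0.60. Library size alone ended the UV call of Ccl27a (0.39) and the control calls of Ccr4 (0.34) and Cx3cl1 (0.27). That scaling moved the median of all genes to −0.16 in UV and −0.29 in control. Relative to those medians the receptors stood at 0.68 in UV and 0.62 in control and the ligands at −0.20 in both conditions. Across the 45 genes, Spearman's rho between exon length and log2 IP over input was 0.29 in UV and 0.28 in control, and between the UV and control values 0.84. The genes share libraries and depth, so these are descriptions.

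**Figure D4:**
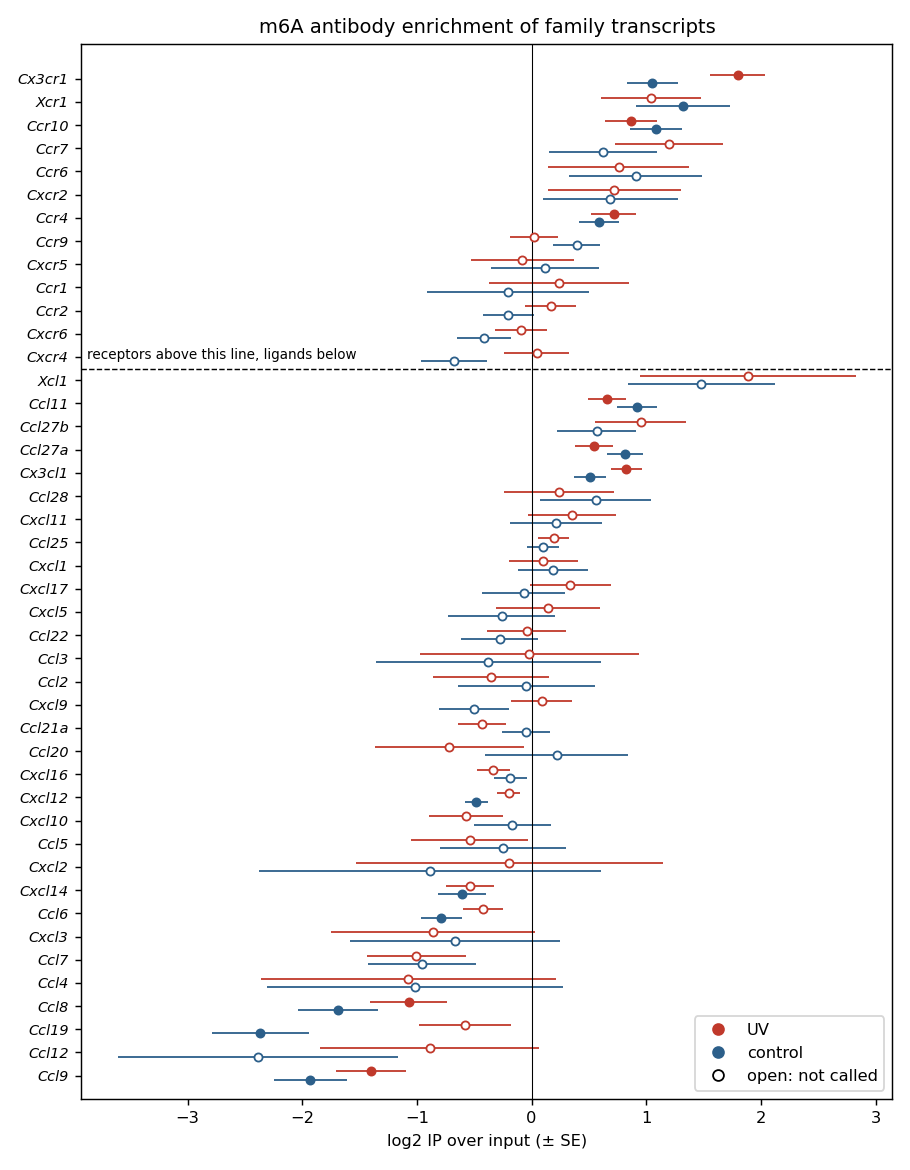
Log2 IP over input (± SE, edgeR) of 44 tested family genes, receptors above the dashed line and ligands below it, with UV in red above control in blue for each gene; filled points have an adjusted p below 0.05. Most receptors lie to the right of 0, Cx3cr1 in UV has the highest filled point at 1.80, and Ccl19 in control has the lowest at −2.37.

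The third comparison asks whether IP over input differed between UV and control. None of 45 family genes was called by edgeR, against 0.012% of 25022 genes. An unadjusted p below 0.05 was found for 2 of the 45 (Ccl19 and Cx3cr1), against 4.43% of all genes. DESeq2 called none, against 0.2% of all genes, and had 1 gene at an unadjusted p below 0.05, and the fit with the sample block called none and had 5 (Ccl19, Ccl21a, Ccr2, Cx3cr1 and Cxcl12). The block called 1.59% of all genes.

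Ccl19 had a log2 IP over input of −0.23, −0.86 and −0.43 in UV samples, against −1.42, −2.31 and −2.98 in control samples, without overlap. Its change was 1.78 ± 0.59 (SE; edgeR adjusted p = 0.834), at input counts of 14 to 56 reads. Cx3cr1 had a change of 0.75 ± 0.33 (SE; edgeR unadjusted p = 0.0396, adjusted p = 1.00). The same quantity was 0.32 ± 0.19 for Cx3cl1, −0.27 ± 0.24 for Ccl11 and −0.27 ± 0.23 for Ccl27a (SE), none past the test. Ccr4, whose input level fell, had an IP over input that overlapped between conditions.

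The deposited peak table allows the same question at single sites. It held 41 entries in 23 family genes, 28 called by the authors in the UV arm and 13 in the control arm, against 24969 and 18020 of all 42989 entries, and 8 genes had entries in both. Entries at the same place in both arms are listed once per arm, so 38 intervals were distinct. The midpoints of 26 entries lay in the last annotated exon, 8 in internal exons, 3 in first exons, 3 in introns and 1 in a gene annotated as a single exon. Peak counts were scaled on the peaks themselves. A log2 IP over input of 0 at a peak is therefore close to the typical tested peak, not to equal IP and input. Of 34 tested entries, 7 were called above that level in UV and 2 in control, against 17.0% and 13.0% of 39910 tested peaks. The change between conditions passed the test for none of the 34 in edgeR, against 0.0% of all peaks. An unadjusted p below 0.05 was found for 6, against 8.08% of all peaks. Entries that overlap or coincide were counted separately here, so these are counts of entries and not of separate sites. The sample block called none and also had 6 at an unadjusted p below 0.05, and it called 0.872% of all peaks.

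The peak of Cx3cl1 that lies nearest to its 3′ end showed the lowest unadjusted p. The authors called this peak in the UV arm only, which favours a higher value in UV. It spans 94781948 to 94782337 on chromosome 8 (GRCm38) in the last exon, with its midpoint 285 bases before the annotated end of the gene. In UV samples it held 15, 49 and 30 IP reads over 4, 7 and 4 input reads, against 10, 25 and 6 IP reads over 18, 9 and 18 input reads in control samples. The log2 IP over input was 0.80, 0.79 and 2.05 in UV samples, against −1.49, −0.72 and −1.28 in control samples, without overlap. The fitted value was 1.41 ± 0.46 in UV (SE; adjusted p = 0.0247) and −1.16 ± 0.41 in control (SE; adjusted p = 0.0449). All of these values are relative to the typical tested peak, so a negative one does not show less IP than input. The change was 2.56 ± 0.62 (SE; edgeR unadjusted p = 0.000743, adjusted p = 0.495, and 0.0649 with the sample block). The authors' deposited table gives this peak a log2 fold change of 2.59 and an FDR of 0.0384, and lists 0.105% of its 42989 peaks at an FDR below 0.05. It is the single family entry of that kind in the authors' deposited table. Of the 3 other Cx3cl1 intervals in the last exon, the 2 that could be tested gave −0.38 ± 0.58 at 2649 bases from the end and 0.92 ± 0.59 at 1647 bases (SE; edgeR unadjusted p = 0.525 and 0.139).

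**Figure D5:**
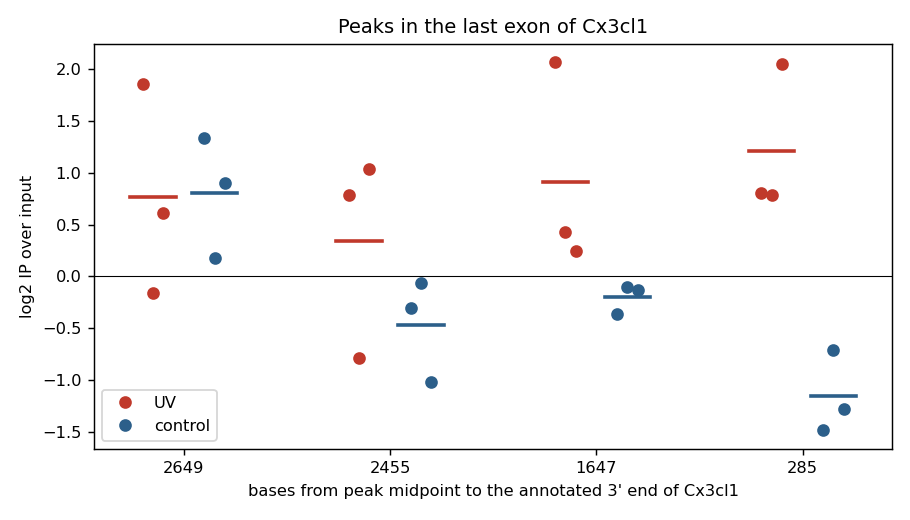
Log2 IP over input in each sample for the 4 peak intervals in the last exon of Cx3cl1, ordered by the distance in bases from the peak midpoint to the annotated 3′ end; red points are UV, blue points control, and bars are group means. At 285 bases the UV points lie between 0.79 and 2.05 and the control points between −1.49 and −0.72, while at 2649 bases the conditions overlap.

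Entries of Ccr7, Xcr1 and Cxcl14 also had an unadjusted p below 0.05 in the fit without the block. The authors called the Ccr7 and Cxcl14 entries, and those of Ccr4 and Cxcr4 described below, in the UV arm only. The Xcr1 entry with that p was called in the control arm only. Calling an entry in a single arm favours a higher value there, so the directions of these changes are not independent of the calls. Ccr7, the receptor that leads dendritic cells to lymph nodes, had a last-exon peak at 99144855 to 99145125 on chromosome 11. Its log2 IP over input was 0.84, 1.29 and 1.56 in UV samples, against −0.29, 0.13 and −0.86 in control samples, and its change was 1.71 ± 0.52 (SE; edgeR unadjusted p = 0.00457, adjusted p = 0.540).

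Xcr1 had 2 tested entries in its last exon. The one nearer to the 3′ end had a change of −1.44 ± 0.59 (SE; edgeR adjusted p = 0.591), with 10, 38 and 16 IP reads over 9, 8 and 17 input reads in UV samples, against 26, 29 and 11 IP reads over 8, 4 and 3 input reads in control samples. The other had a change of −0.12 ± 0.87 (SE; edgeR unadjusted p = 0.891). Cxcl14 had a change of 0.86 ± 0.39 (SE; edgeR adjusted p = 0.610) at a peak that begins at its annotated end. That peak stood at 1.99, 0.38 and 0.67 in UV samples, against −0.13, 0.27 and −0.10 in control samples. The whole transcript lay below 0 on the gene scale. The 0 of that scale is not that of the peaks, so peak and transcript cannot be set against each other there. Ccr4 had a last-exon peak with 1.60 in UV (adjusted p = 0.0489) and 0.09 in control (adjusted p = 0.896). Both values are relative to the typical tested peak, so 0.09 does not mean equal IP and input. The change was 1.51 ± 0.76 (SE; edgeR adjusted p = 0.639). The UV inputs of this peak held 4, 4 and 1 reads, so 1 read moves the value. The peak of Cxcr4, the receptor of Cxcl12, was too low to test. In the authors' deposited table it has a log2 fold change of 2.59 with a p-value of 0.00957 and an FDR of 0.587.

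The top peaks of the remaining genes gave no difference past the test, and the 7 entries too low to test lay in Ccl28, Ccr6, Cx3cl1, Cxcl1, Cxcl17, Cxcr4 and Xcl1. Cx3cr1 had its peak at 120049059 to 120049447 on chromosome 9, at 0.79 in UV and 0.36 in control. It lay in an internal exon of the merged annotation, 147637 bases before the annotated end of the gene. Exons of all annotated transcripts were merged, so this exon may be the last of a shorter transcript. Ccr9, Ccl25 and Cx3cl1 had entries with the same bounds in both arms. The top entry of Cxcl12 was 2072 bases wide and reached an exon, with its midpoint in an intron, and that of Cxcl16 lay in its first exon. On the peak scale both entries lay below 0 in both conditions, at −0.71 and −0.90 in UV and −0.96 and −0.56 in control. Being below the typical tested peak, they need not have had less IP than input.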

How the data were processed

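Raw read counts of 49492 genes in 12 libraries were deposited, and a second deposited table held raw counts per peak with the authors' log2 fold change, p-value and FDR, per the file headers. STAR 2.5.3a and the GRCm38 build are named by the submitters' processing notes. For the counter, the peak caller, the authors' test and the use of strand, no source used here gives a name. Between 79.5% and 83.6% of counts from 1 to 20 in a library were even, as when both mates are counted. Peak starts in the deposited table counted from 0 and are printed counting from 1.

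Counts were scaled with TMM, filtered with filterByExpr and tested with the quasi-likelihood test of edgeR 4.0.16 (R 4.3.3), with calls made below 0.05 after Benjamini-Hochberg adjustment over all genes or peaks tested. Expression was fitted on the 6 input libraries. IP over input and its change (the interaction) were fitted on all 12 libraries with 4 group means. Genes and peaks were scaled separately. For single samples, IP over input is a difference of log2 CPM with a prior count of 2. Promoters came from RefSeq (GRCm38.p6). On simulated counts with 200 genes changed by 2 on the log2 scale, the expression step called 99.5% of them over 23916 genes and the interaction step 93.5% over 24519 genes. Of the unchanged genes, 18 and 10 were called. The changed genes were drawn above a minimum mean CPM that many family genes did not reach. The simulation held no deviation shared by IP and input of a sample. These rates therefore do not measure the power for low family genes or smaller changes.

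IP and input of one sample deviated together (correlations of 0.507 to 0.724 over 17800 genes, against −0.578 to −0.164 for IP and input of different samples), so the sample number pairs them and the fit with that block is given. Pairs of replicates differed by more than counting noise (chi-square per degree of freedom 43.5 to 151). Alternatives were DESeq2 1.42.0, library size alone, no filter, halved counts, a fit on all 12 libraries, a replicate block, and leaving out each sample. The genes, lists and motifs were chosen with earlier results of these data known. Genes named with values were those called and the 20 with the highest mean input CPM, peaks were those called and the peak with the highest mean IP count of a gene, and from each list up to 4 called genes were named. Other named genes were picked after their values were seen. 1 gene of the family is in the counts but is not reported here.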

Additional observations from a re-analysis of the deposited data

How the results depend on the processing

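For expression, 1 gene rose and 2 fell as reported. DESeq2 and the fit on all 12 libraries gave 2 higher and 4 lower, halved counts and no filter gave 2 higher, library size alone gave 0 higher, and leaving out a sample gave 0 to 1 higher and 1 to 3 lower. The higher gene without control sample 3 was Cxcl9. Sample numbers did not pair UV with control inputs (correlations −0.0845, 0.0591 and −0.199), and a replicate block on them gave 0 higher and 1 lower. For IP over input in UV, the block of IP and input of a sample gave 10 higher and 7 lower, library size alone gave 8 lower, and leaving out a sample gave 4 to 9 higher and 2 to 4 lower, the 4 lower without control sample 2 or control sample 3. In control, the block gave 11 higher, library size alone gave 11 lower, and leaving out a sample gave 4 to 7 higher, the 4 without control sample 2, and 5 to 7 lower. The change of IP over input had 0 calls for genes and for peaks in each setting run. No value changed sign among the named genes that were recomputed. The causes of these shifts were not tested. With 3 samples per condition and at most 56 reads in any input library, Ccl2, Ccl3, Ccl4 and Ccl19 had standard errors of 0.38 or more on the log2 scale.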
